A study of Mus musculus with 2 samples.

Results

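Collagen genes and genes that mark hepatic stellate cells were examined in 1 library of mature hepatocytes (MHs) and 1 library of small hepatocytes (SHs). The genes were the 44 whose symbol is Col, a number, the letter a and a number, together with 16 named genes of stellate cells, namely Dcn, Reln, Des, Colec11, Pdgfra, Pdgfrb, Ecm1, Hgf, Rgs5, Acta2, Tagln, Lum, Bgn, Sparc, Vim and Ngfr. These 60 genes were all among the 43280 gene symbols with deposited read counts. Both libraries came from untreated C57BL6 mice, whose age the sample labels give as 20 weeks, whereas the methods give a younger range for the mice of the study. Both kinds of cell were taken from the same animals after perfusion of the liver with collagenase. MHs were the cells that pelleted at low speed, from which a Percoll step removed dead cells, and no sort was stated for them. SHs, which are hepatocytes of small size with progenitor properties, came from the supernatant and were purified by a FACS gate that required ICAM-1 and left out cells with CD31, CD45 or EpCAM. No marker of stellate cells was part of this sort. The cells of 3 mice were used, and the methods do not state whether they were pooled. Each library is therefore a single bulk sample without a replicate.

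Collagens are matrix proteins whose chains wind into triple helices. The fibril-forming types make up the bulk of scar tissue, type IV forms the network of basement membranes, and types XV and XVIII are attached to basement membranes and carry glycosaminoglycan chains. In the liver, most fibrillar collagen is known to come from stellate cells, which are pericytes of the sinusoid that store vitamin A and become myofibroblasts after injury, and from portal fibroblasts. Hepatocytes themselves are known to make type XVIII collagen, from which the fragment endostatin is released.

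Poly(A) RNA was sequenced on an Ion Proton system, and the deposited values are whole reads per gene. The library of MHs held 16979136 reads and that of SHs 42356444, so a gene at the same level in both had 2.49 times as many reads in SHs. The level of a gene in a library is given as reads per 1000000 counted reads (RPM). Where genes are compared with each other, it is given as RPKM, which is RPM per 1000 bases of exon. The log2 ratio compares RPM in SHs with RPM in MHs after 0.5 reads were added to each count, and its 95% Clopper-Pearson interval covers counting error only. With 1 library per condition, no difference has a replicate check and no p-value was computed. The limit of detection was set at 3 reads, which was 0.177 RPM in MHs and 0.0708 RPM in SHs. For a gene with 1 to 3 reads in a library the interval alone is given. A gene with 0 reads in a library was compared with 3 reads, which gives a bound. The 8 hepatocyte markers made up 7.95% of reads for MHs and 8.36% for SHs, which shows hepatocyte RNA in both but does not tell the libraries apart. Alb, which encodes albumin, had 945837 reads in MHs against 2577617 in SHs.

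The upstream sequences of Col18a1, Bgn and Colec11 are shown, since Col18a1 was the collagen gene with the most reads in both libraries, and Bgn and Colec11 were stellate cell genes found in MHs that had 0 reads in SHs. RefSeq windows on the GRCm38.p6 build were found for 47 of the 60 genes, in 51 windows. The sequences are the 250 bases before each annotated start, written 5′ to 3′ on the strand of the gene. Col18a1, on the minus strand, has an outer start with the window chr10:77166531-77166780 and an inner start with the window chr10:77113706-77113955. Bgn lies on the plus strand with the window chrX:73483351-73483600, and Colec11 on the minus strand with chr12:28623331-28623580. Capitals mark the CCAAT box, written CCAAT, and the GC box, written GGGCGG, on either strand.
Col18a1 outer start: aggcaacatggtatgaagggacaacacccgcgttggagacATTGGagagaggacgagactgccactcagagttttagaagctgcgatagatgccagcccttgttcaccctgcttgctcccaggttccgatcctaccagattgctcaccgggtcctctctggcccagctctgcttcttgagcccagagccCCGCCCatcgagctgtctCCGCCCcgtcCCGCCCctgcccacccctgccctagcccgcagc
Col18a1 inner start: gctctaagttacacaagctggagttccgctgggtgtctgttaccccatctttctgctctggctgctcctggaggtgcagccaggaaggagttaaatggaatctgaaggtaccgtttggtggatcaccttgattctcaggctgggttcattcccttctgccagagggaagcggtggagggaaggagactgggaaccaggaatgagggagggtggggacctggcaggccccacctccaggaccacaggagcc
Bgn: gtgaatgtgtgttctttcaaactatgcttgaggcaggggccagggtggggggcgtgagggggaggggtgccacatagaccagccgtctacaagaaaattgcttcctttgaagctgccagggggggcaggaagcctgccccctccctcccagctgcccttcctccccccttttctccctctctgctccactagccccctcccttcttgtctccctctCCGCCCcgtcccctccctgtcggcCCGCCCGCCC
Colec11: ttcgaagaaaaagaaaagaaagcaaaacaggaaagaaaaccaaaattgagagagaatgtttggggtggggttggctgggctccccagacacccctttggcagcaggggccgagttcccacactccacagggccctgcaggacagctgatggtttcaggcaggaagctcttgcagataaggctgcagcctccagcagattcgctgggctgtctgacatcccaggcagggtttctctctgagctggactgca
The outer window of Col18a1 held 3 GC boxes and 1 CCAAT box, and the inner window held 0 of the motifs searched. Bgn held 3 GC boxes, of which 2 overlap each other, and Colec11 held 0. Reads per gene do not show which start of Col18a1 was used. Over the 51 windows, the GC box was found in 27, the CCAAT box in 15 and the TATA box, written TATAAA, in 7. Of 32851 windows of the same length for all genes, 32.7% held the GC box, 33.8% the CCAAT box and 12.4% the TATA box. The motif CAAAGTCCA, which the hepatocyte factor HNF4 is known to bind, was in 0 of the 51 windows and in 0.384% of all windows. A match of letters does not show that a factor was bound there.

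The stellate cell genes were lower in SHs than in MHs, whereas the collagen genes with many reads were at nearly the same level in both. Of the 60 genes, 35 had at least 10 reads over both libraries. A gene was called lower or higher when its RPM differed by at least 2-fold, with counts under 3 set to 3, and when its interval lay wholly on that side of 0. Among the 23 collagen genes with at least 10 reads, 6 were called lower and 0 higher. Among the 12 stellate cell genes, 11 were lower and 0 were higher. Of all 15521 genes with at least 10 reads, 4.44% were lower and 1.82% higher. The minimum applied to the sum of the libraries, so a gene could pass through the library in which it was high. Of the 17 genes called lower, 11 had under 10 reads in SHs and 6 had 3 or fewer.

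Calls depended on the number of reads. The 29 genes with at least 10 but under 200 reads included all 17 that were lower and 0 that were higher, where 10.3% of all genes in that range were lower and 4.19% higher, and 6.34% had an interval wholly above 0. The other 6, with 200 or more reads, were all collagen genes and included 0 that were lower or higher, where 0.812% of all genes in that range were lower and 0.354% higher. The median log2 ratio was -0.19 over the 23 collagen genes and -3.09 over the 12 stellate cell genes, beside 0.02 over all 15521 genes. With counts under 3 set to 3, the stellate median was -2.92 and the collagen median was -0.19 again. The summed reads of the 16 stellate cell genes were 585 in MHs and 145 in SHs, or 34.5 and 3.42 RPM, which gave a log2 ratio of -3.33 (interval -3.60 to -3.07). A wider list of 22 stellate cell markers, which adds 6 genes to these, had 678 and 276 reads and a smaller difference, with a log2 ratio of -2.61 (-2.82 to -2.41). The summed reads of the 44 collagen genes were 18199 and 50915, or 1072 and 1202 RPM, which gave a log2 ratio of 0.17 (0.14 to 0.19). In bulk RNA, fewer cells of a type and less RNA per cell cannot be told apart.

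**Figure D1:**
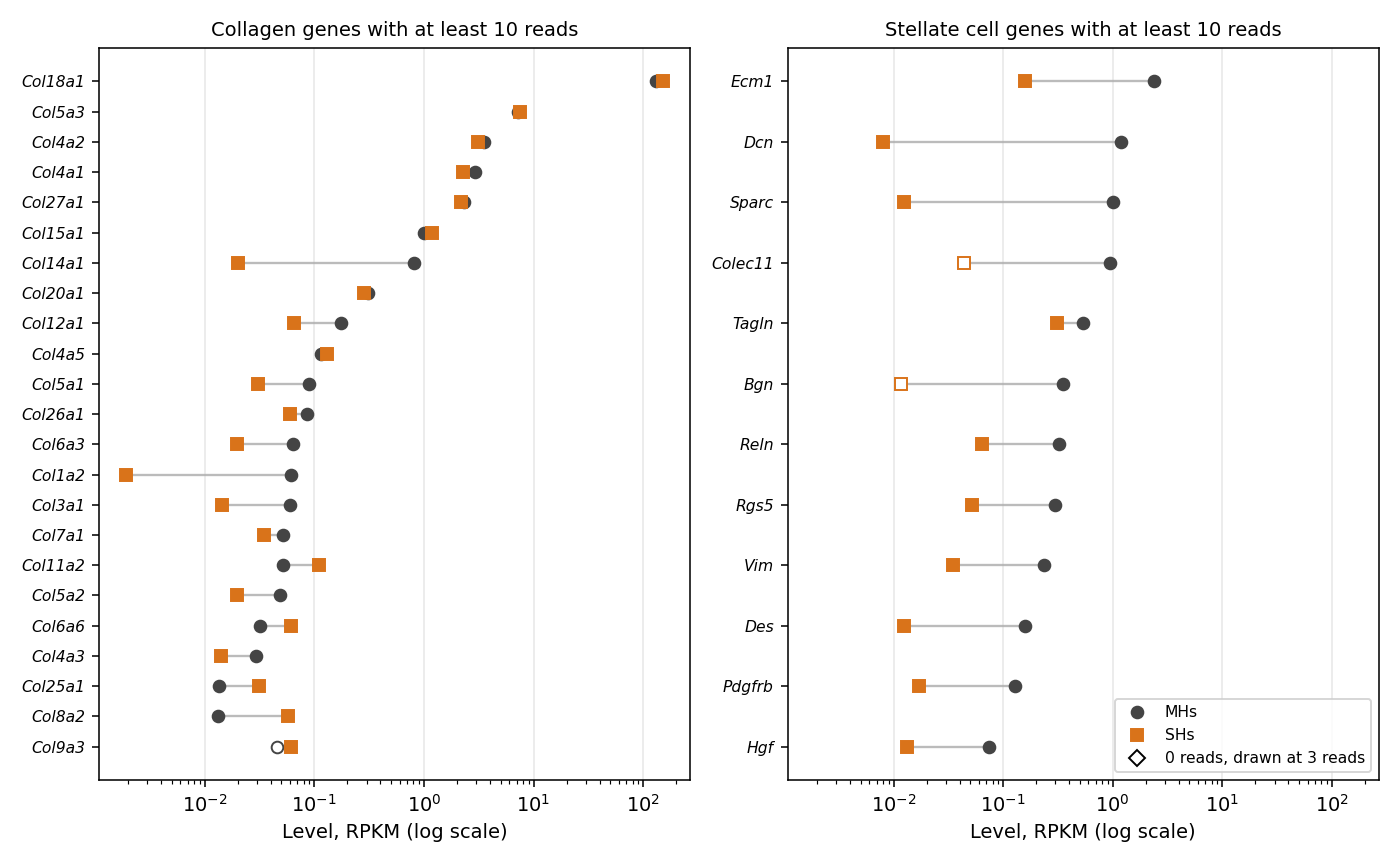
Levels in RPKM on a log axis for the 23 collagen genes (left) and the 12 stellate cell genes (right) with 10 or more reads in all, in MHs (circles) and SHs (squares), with 1 library each. Open symbols are libraries with 0 reads, drawn at the level of 3 reads. Col18a1 stood at 131.5 and 152.2 RPKM, and all 12 stellate cell genes were at a higher level in MHs. For Tagln, the interval of the ratio included 0.

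Col18a1, the gene of the chain of type XVIII collagen (chromosome 10, 77052178 to 77166548 of mm10), was by far the main collagen gene of both libraries. It had 15674 reads in MHs against 45254 in SHs, 923.1 and 1068 RPM. Its level per exon length was 131.5 RPKM in MHs and 152.2 in SHs, in place 530 and 480 among the 39469 symbols with annotated exons. Its reads were 86.1% of all collagen reads in MHs and 88.9% in SHs, and by RPKM its shares were 87.2% and 89.7%. Its log2 ratio was 0.21 (0.18 to 0.24), which was the only interval of the 35 genes wholly above 0. Such an interval was found in 16.8% of all genes with at least 10 reads and in 23.2% of those with 200 or more. The difference in Col18a1 was far under 2-fold. The sign of the summed collagen ratio rested on this gene, since the other 43 collagen genes together had 2525 reads in MHs against 5661 in SHs, giving a log2 ratio of -0.15 (-0.22 to -0.09). Its relative in structure, Col15a1, had 109 reads in MHs against 318 in SHs, giving a log2 ratio of 0.22 (-0.09 to 0.55) that included 0. Within a library, the level of Col18a1 per exon length was 130.0 times that of Col15a1 in MHs (108 to 158) and 128.7 times in SHs (115 to 144).

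Next in level came Col5a3, a chain of the fibril-forming type V collagen (chromosome 9, 20770050 to 20815067), with 827 reads in MHs against 2177 in SHs, or 7.15 and 7.55 RPKM. Its log2 ratio was 0.08 (-0.04 to 0.19). The other chains of type V were far lower in level. Col5a1 had 13 reads in MHs against 11 in SHs, giving a log2 ratio of -1.55 (-2.86 to -0.29), and was called lower. Col5a2 had 8 reads in each library, a log2 ratio of -1.32 whose interval of -2.93 to 0.29 included 0. The level of Col5a3 per exon length was therefore 79.3 times that of Col5a1 in MHs (46.1 to 149.6) and 246.8 times in SHs (137.6 to 495.1). These intervals overlapped in part, and they rest on the few reads of Col5a1. The intervals of the log2 ratios of Col5a3 and Col5a1 did not overlap. Col27a1, a fibril-forming chain best known from cartilage, had 518 reads in MHs against 1207 in SHs, giving a log2 ratio of -0.10 (-0.25 to 0.05).

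The main basement membrane chains were slightly lower in SHs. Col4a1 and Col4a2, which assemble into the common form of type IV collagen, lie head to head on chromosome 8, from 11198423 to 11312826 and from 11312805 to 11449287, so that their first exons overlap on opposite strands. Col4a1 had 368 reads in MHs against 718 in SHs, and Col4a2 had 398 and 872. The log2 ratio was -0.36 (-0.54 to -0.17) for Col4a1 and -0.19 (-0.36 to -0.01) for Col4a2, so that the intervals overlapped. Both lay under 0, as did those of 15.5% of all genes with at least 10 reads and 16.9% of those with 200 or more. Neither gene reached a 2-fold difference. When the 10 genes with the most reads were left out of the library totals, the interval of Col4a2 included 0. The level of Col4a1 per exon length was 0.820 times that of Col4a2 in MHs (0.710 to 0.947) and 0.730 times in SHs (0.661 to 0.807), and these intervals overlapped. Endothelial cells are also known to make both chains. The minor chains of the family had few reads. Col4a5 had 13 reads in MHs against 37 in SHs, giving a log2 ratio of 0.16 (-0.75 to 1.23), and its neighbour Col4a6 had 0 and 1. Col4a3 had 5 and 6 reads, that is a log2 ratio of -1.08 (-3.03 to 0.99), and its neighbour Col4a4 had 0 and 3. A noncoding gene whose exons overlap those of Col4a3, C430014B12Rik, had 11 and 21 reads.

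The collagens of scar tissue were close to the limit of detection in both libraries. Type I collagen is built from the products of Col1a1 and Col1a2. Col1a1 had 1 read in MHs against 6 in SHs, with an interval of -1.78 to 6.79. That interval included 0, and Col1a1 had under 10 reads in all. Col1a2 had 13 reads in MHs against 1 in SHs and was called lower with an interval of -10.43 to -2.28, which did not overlap that of Col1a1. At equal RPM, 32.4 reads of Col1a2 would have been counted in SHs. Col3a1, the gene of type III collagen, had 10 reads in MHs against 6 in SHs, giving a log2 ratio of -2.01 (-3.80 to -0.45), and was called lower. Even in MHs, the levels of Col1a2 and Col3a1 were only 0.0616 and 0.0600 RPKM. Among the remaining fibril-forming genes, Col11a2 had 6 reads in MHs against 32 in SHs. Its log2 ratio of 1.00 was the highest among the genes with more than 3 reads in both libraries, but the interval of -0.18 to 2.64 included 0. Col2a1 had 2 and 6 reads, Col11a1 had 0 and 2, and Col24a1 had 0 in both.

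The collagens that sit on the surface of fibrils, known as FACITs, held the lowest ratio among the collagen genes with more than 3 reads in both libraries. Col14a1, the gene of type XIV collagen (a fibril-associated chain of connective tissue), had 96 reads in MHs against 6 in SHs, where 239.5 would have been counted at equal RPM. Its level was 0.806 RPKM in MHs but 0.0202 RPKM in SHs, giving a log2 ratio of -5.21 (-6.80 to -4.14). Col12a1 was also called lower, with 45 reads in MHs against 42 in SHs, giving a log2 ratio of -1.42 (-2.06 to -0.78). Col14a1 and Col12a1 had intervals that did not overlap. By contrast, Col20a1 had 27 reads in MHs against 62 in SHs, giving a log2 ratio of -0.13 (-0.79 to 0.59). Together the 9 FACIT genes had 174 reads in MHs against 131 in SHs, giving a log2 ratio of -1.73 (-2.07 to -1.39). This sum rested largely on Col14a1, without which the other 8 genes summed to 4.59 RPM (MHs) against 2.95 RPM (SHs), a log2 ratio of -0.64 (-1.06 to -0.21). Col9a3 had 0 reads in MHs against 10 in SHs, and its interval, with a lower end of -0.15, included 0.

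Of the beaded-filament genes, Col6a3, a chain of the type VI collagen that surrounds many cells, had 13 reads in MHs against 10 in SHs and was called lower, with a log2 ratio of -1.68 (-3.05 to -0.39). Its partner chains Col6a1, with 3 and 0 reads, and Col6a2, with 2 and 5, were under 10 reads. Col6a6 had 5 reads in MHs against 24 in SHs, but its ratio of 0.84 had an interval of -0.47 to 2.69. Col7a1, which forms the anchoring fibrils under epithelia, had 9 and 15 reads and a log2 ratio of -0.61 (-1.87 to 0.79). Col26a1 had 12 and 21 reads, with -0.54 (-1.60 to 0.65). Col8a2, which had 1 and 11 reads, and the transmembrane collagen Col25a1, which had 3 and 17, had intervals from -0.64 to 7.57 and from -0.61 to 3.60. A small nuclear RNA gene within an intron of Col25a1 had 67 reads in MHs against 194 in SHs. The remaining 21 collagen genes had under 10 reads. The transmembrane gene Col13a1 stood apart among them, with 9 reads in MHs against 0 in SHs, at least 7.48-fold lower. Col23a1 had 1 and 6 reads, and both counts were 3 or fewer for 16 collagen genes, for which no fold is given.

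**Figure D2:**
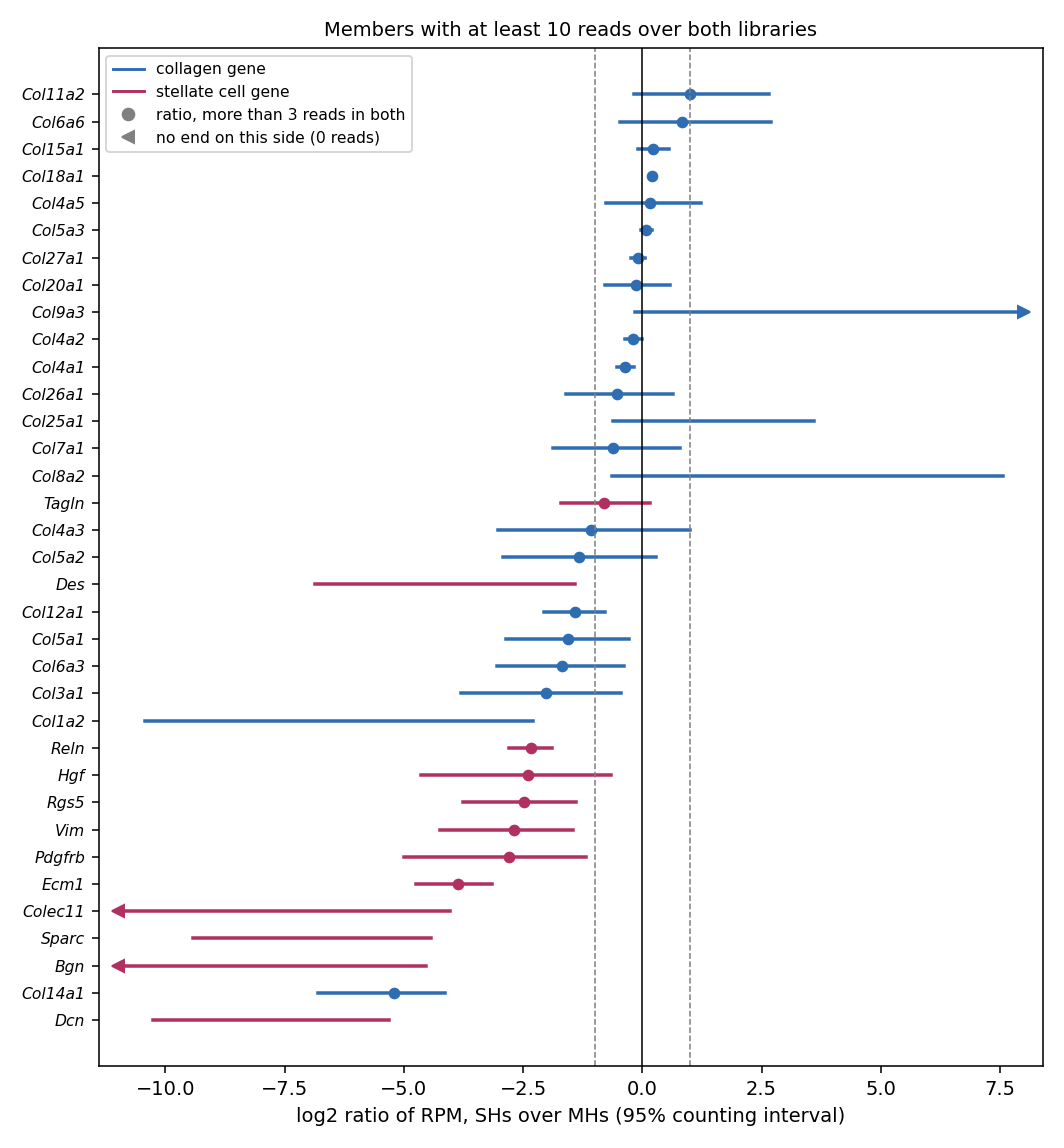
The log2 ratio of RPM in SHs over MHs (x axis) for the 35 genes with at least 10 reads, with 95% counting intervals as lines and 1 library per condition. Points are drawn only for genes with more than 3 reads in both libraries, arrows mark intervals without an end because of 0 reads, and dashed lines mark 2-fold. Of the 12 stellate cell genes, 11 have intervals wholly under 0, the exception being Tagln, and Col18a1 has the only interval wholly above 0.

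Dcn, Bgn and Lum encode small leucine-rich proteoglycans, which bind collagen fibrils, and all 3 were at or under the limit of detection in SHs. Prelp, a gene of the same family among the other matrix genes, was called lower but stayed above that limit, with 48 and 12 reads and a log2 ratio of -3.27 (-4.37 to -2.38). Dcn, which encodes decorin, had 117 reads in MHs against 2 in SHs, where 291.9 would have been counted at equal RPM. Its interval ran from -10.25 to -5.30, so that the end nearest to 0 was a 39.5-fold lower level. Bgn, which encodes biglycan, had 36 reads in MHs against 0 in SHs, at least 29.9-fold lower. Lum, which encodes lumican, had 9 reads in MHs against 0 in SHs, at least 7.48-fold lower, but had under 10 reads in all. Sparc, which encodes a collagen-binding matrix protein that endothelial cells also make, had 65 reads in MHs against 2 in SHs, with an interval of -9.42 to -4.43. Ecm1, which encodes a secreted matrix glycoprotein, had the highest level of the stellate cell genes in MHs, 2.38 RPKM. It had 102 reads in MHs against 17 in SHs, giving a log2 ratio of -3.87 (-4.74 to -3.15).

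Secreted signals and lectins followed. Reln, which encodes reelin, a secreted glycoprotein best known from the brain and used in the liver as a mark of stellate cells, had the most reads of the list. It had 130 reads in MHs against 64 in SHs, giving a log2 ratio of -2.34 (-2.80 to -1.90). Its share of the reads of the 16 genes was 22.2% in MHs and 44.1% in SHs. The difference in Reln was smaller than in Dcn, Bgn, Colec11, Sparc and Ecm1, whose intervals all lay below that of Reln. Colec11, which encodes a collectin of the complement system, had 26 reads in MHs against 0 in SHs, at least 21.6-fold lower. Hgf, the growth factor that stellate cells supply to hepatocytes, had 9 reads in MHs against 4 in SHs, giving a log2 ratio of -2.40 (-4.64 to -0.65). Its receptor Met had 1385 reads in MHs against 3051 in SHs, giving a log2 ratio of -0.18 (-0.27 to -0.09).

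Receptors and regulators of pericytes had few reads in either library. Pdgfrb, the receptor through which stellate cells answer PDGF, had 12 reads in MHs against 4 in SHs, giving a log2 ratio of -2.79 (-4.99 to -1.18). Rgs5, a regulator of G protein signaling found in pericytes, had 23 and 10 reads, with -2.48 (-3.76 to -1.39). Pdgfra and the nerve growth factor receptor gene Ngfr each had 4 reads in MHs against 2 in SHs, with intervals of -5.79 to 0.48 that included 0. The direction of the last pair could not be read at this depth.

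Of the 4 cytoskeletal genes, Acta2 had under 10 reads in all, and among the others 2 were called lower and 0 higher. Beside these, 10.3% of all genes with at least 10 but under 200 reads were lower and 4.19% higher. Des and Vim, which encode the intermediate filament proteins desmin and vimentin, were called lower. Des had 10 reads in MHs against 2 in SHs, with an interval of -6.87 to -1.41. Vim had 19 and 7 reads, that is a log2 ratio of -2.70 (-4.25 to -1.45). Acta2 and Tagln encode contractile proteins of myofibroblasts and smooth muscle, and Tagln was not called. Acta2 had 1 read in MHs against 3 in SHs, so that the gene most used to mark activated stellate cells was at or under the limit of detection in both libraries. Tagln had 18 reads in MHs against 26 in SHs, but its ratio of -0.80 had an interval of -1.71 to 0.17. Exons of Tagln overlap those of Pcsk7 on the opposite strand, which had 504 and 1302 reads, and the sources used here do not state whether strand was used in counting. The part of Pcsk7 reads in the Tagln count was not tested.

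Markers of endothelial cells and macrophages were lower in SHs, as the stellate cell genes were, and those of cholangiocytes were not called. The 10 endothelial markers had 1595 reads in MHs against 201 in SHs, 93.9 and 4.75 RPM, and 10 of 10 were called lower. Of these 201 reads, 119 were on Stab2. The 10 macrophage markers had 371 and 33 reads, 21.9 and 0.779 RPM, and 8 of the 8 with at least 10 reads were called lower. Of all genes with at least 10 reads, 4.44% were lower. The summed log2 ratio was -4.30 (-4.53 to -4.09) for endothelial markers and -4.79 (-5.37 to -4.29) for macrophage markers. Both intervals lay below that of the stellate cell genes, -3.60 to -3.07. The stellate sum depended on the list, with a log2 ratio of -3.80 without Reln and -2.61 over the wider list of 22 markers. The 7 cholangiocyte markers had 237 and 599 reads, with a summed log2 ratio of 0.02 (-0.20 to 0.24), and of the 2 with at least 10 reads, Sox9 and Spp1, 0 were called. These 2 lay on opposite sides of 0. Sox9 had 92 and 325 reads, with a log2 ratio of 0.50 (0.16 to 0.85). Spp1 had 136 and 271, with -0.33 (-0.63 to -0.02). The defining genes Krt19 and Krt7 each had 1 read in each library. Epcam had 6 reads in MHs against 1 in SHs, 0.353 and 0.0236 RPM. Its interval of -9.43 to -0.86 lay under 0, but it had under 10 reads in all. The sort of SHs left out cells with CD31, CD45 or EpCAM. The lists hold the genes of these proteins, Pecam1, Ptprc and Epcam, so these lists are not independent of the sort. The part of stellate cells in the reads of the unsorted MHs was not tested, and the sort cannot be told apart from the type of hepatocyte in this design.

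**Figure D3:**
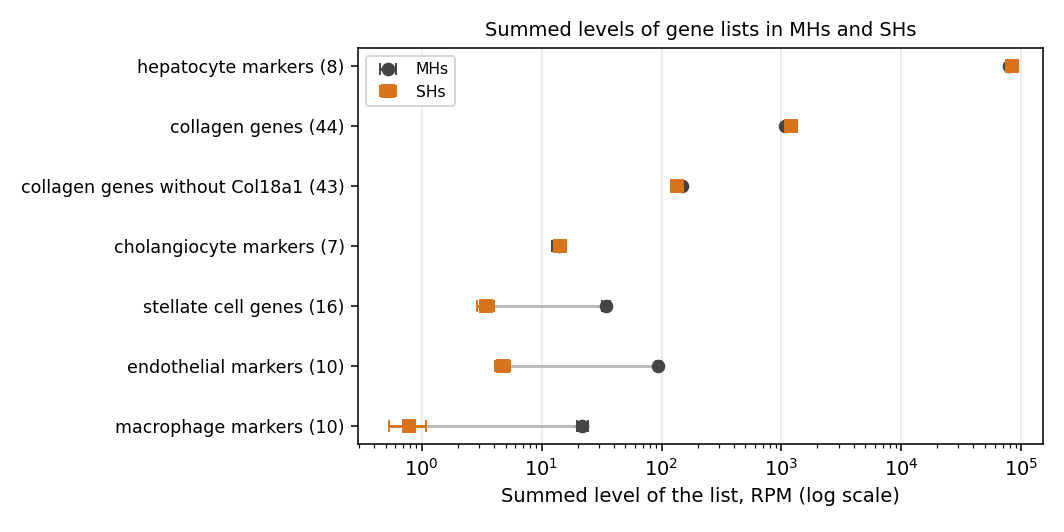
Summed level in RPM, on a log axis, of gene lists in MHs (circles) and SHs (squares), with 1 library each and bars for the 95% binomial interval, which covers counting error only. Numbers in brackets are the genes in each list. The stellate cell genes stood at 34.5 RPM in MHs and 3.42 in SHs, the endothelial markers at 93.9 and 4.75, and the collagen genes stood at 1072 and 1202.

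Further genes of stellate cells included both genes that were lower in SHs and genes that were not called. Of 17 listed genes outside the members, 10 had at least 10 reads, 5 were called lower and 0 higher. Lrat, which makes the retinyl esters that stellate cells store, had 39 reads in MHs against 2 in SHs, with an interval of -8.70 to -3.65. Abcc9 had 34 and 5 reads, with a log2 ratio of -3.97 (-5.80 to -2.72), and Tgfbi had 27 and 4, with -3.93 (-6.05 to -2.55). The genes of this list with the most reads were not called. Cxcl12, a chemokine, had 2781 and 6743 reads, that is a log2 ratio of -0.04 (-0.11 to 0.02). Steap4 had 1805 and 3745, with -0.27 (-0.35 to -0.18). The transcription factors Lhx2 and Hand2, which define the stellate lineage, had 1 and 5 reads in MHs and 2 and 1 in SHs, and Gfap had 1 and 0. Among 15 markers of portal fibroblasts and mesothelial cells, 11 had 0 reads in MHs and 9 had 0 in SHs, and of the 2 with at least 10 reads, 0 were called. These were Gas6, with 119 and 272 reads, and Entpd2, with 10 and 34, and next came Cd34, with 1 and 3.

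In the machinery that folds, exports and crosslinks collagen, the genes with the most reads were at nearly the same level in both libraries. Of 29 genes, 20 had at least 10 reads, 2 were called lower and 0 higher. These calls were 10% and 0%, beside 4.44% and 1.82% of all genes with at least 10 reads. P4hb, a subunit of the prolyl hydroxylase that also serves as a general folding enzyme, had 24217 reads in MHs against 58148 in SHs, giving a log2 ratio of -0.06 (-0.08 to -0.03). Ctage5 had 2710 and 6487 reads, with -0.06 (-0.12 to 0.01), and Ppib had 2679 and 6173, with -0.11 (-0.18 to -0.05). The 2 called lower were a chaperone and a crosslinking enzyme. Serpinh1, which encodes the collagen chaperone HSP47, had 19 reads in MHs against 1 in SHs, with an interval of -10.94 to -2.91. Loxl2, which crosslinks collagen, had 10 and 0 reads, at least 8.32-fold lower. Its relative Loxl4 was not called, with 122 and 250 reads and a log2 ratio of -0.29 (-0.60 to 0.04). Of the relatives with under 10 reads in all, Lox had 0 and 4 reads, Loxl1 1 and 0, and Loxl3 6 and 1. The interval of Loxl3, -9.43 to -0.86, lay wholly under 0.

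Among 15 genes of collagen breakdown, 5 had at least 10 reads. Of these, 2 were called lower and 0 higher, beside 4.44% and 1.82% of all genes. The 2 were inhibitors of metalloproteinases. Timp3 had 58 reads in MHs against 10 in SHs, giving a log2 ratio of -3.80 (-4.99 to -2.87), and Timp2 had 17 and 3, with an interval of -6.23 to -2.03. Mmp14, a membrane-bound collagenase, had 165 and 518 reads and a log2 ratio of 0.33 (0.08 to 0.59). Reck, a membrane inhibitor of metalloproteinases, had 26 and 126 reads and 0.94 (0.34 to 1.63), and Adamts1 had 45 and 114 reads and 0.01 (-0.49 to 0.55).

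The collagen receptors held the single higher call of all the lists. Ddr1, a receptor tyrosine kinase that collagen activates and that is typical of epithelial cells, had 3 reads in MHs against 78 in SHs, with an interval of 1.78 to 5.69. Its counterpart of mesenchymal cells, Ddr2, was called lower, with 14 and 2 reads, where 34.9 would have been counted in SHs at equal RPM. The integrin genes Itgb1, with 1819 and 3664 reads, and Itga1, with 293 and 565, had log2 ratios of -0.31 (-0.39 to -0.23) and -0.37 (-0.58 to -0.16) and were not called. Of 10 receptor genes, 5 had at least 10 reads, with 1 called lower and 1 higher, beside 4.44% and 1.82% of all genes.

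Of 25 other matrix genes, 11 had at least 10 reads. Among these, 6 were called lower and 0 higher, beside 4.44% and 1.82% of all genes. Vtn and Fn1, which encode the plasma proteins vitronectin and fibronectin that hepatocytes secrete, had 52600 and 28320 reads in MHs and 135528 and 72320 in SHs. Their log2 ratios were 0.05 (0.03 to 0.06) and 0.03 (0.01 to 0.05). Agrn, which encodes the proteoglycan agrin, had 711 and 1696 reads and -0.07 (-0.19 to 0.06). Hspg2, which encodes perlecan of basement membranes, had 201 and 153 reads, with -1.71 (-2.03 to -1.40). Igfbp7 had 156 and 9 reads, with -5.36 (-6.59 to -4.47), and Nid1, which links laminin to type IV collagen, had 49 and 24, with -2.33 (-3.12 to -1.62). Its relative Nid2 was not called, with 142 and 390 reads and 0.14 (-0.14 to 0.43).

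In the list of TGF-β and PDGF signaling, 16 of 22 genes had at least 10 reads. Of these, 4 were called lower and 0 higher, beside 4.44% and 1.82% of all genes. Ltbp4, which holds latent TGF-β in the matrix, had 105 reads in MHs against 5 in SHs, giving a log2 ratio of -5.58 (-7.36 to -4.44). The coreceptor gene Tgfbr3 had 50 and 12 reads, with -3.33 (-4.42 to -2.45), and Ctgf had 11 and 1, where 27.4 would have been counted in SHs at equal RPM. The signal transducers were not called. Smad4 had 346 and 947 reads, with 0.13 (-0.05 to 0.32), and Smad3 had 289 and 986, with 0.45 (0.26 to 0.65). Of 12 smooth muscle genes, 6 had at least 10 reads. Only 1, Mcam, was called lower, with 17 and 4 reads, beside the same 4.44% of all genes. Cald1 had 1834 and 4948 reads, Mylk 1256 and 2667 and Tpm2 44 and 184, and their log2 ratios were 0.11 (0.04 to 0.19), -0.23 (-0.33 to -0.13) and 0.73 (0.26 to 1.25).

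**Figure D4:**
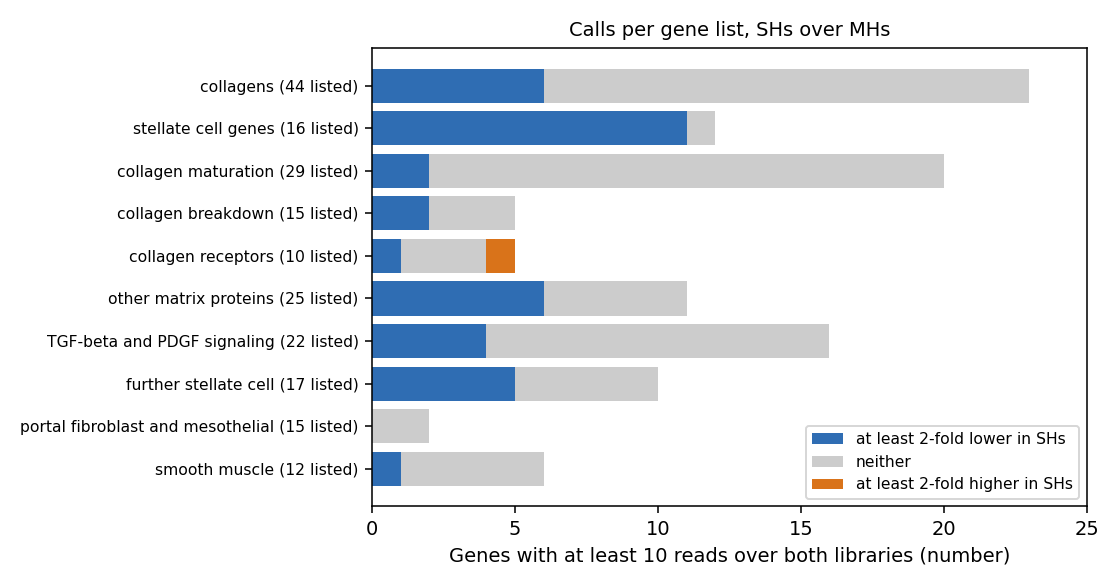
Number of genes with 10 or more reads in all in each list (x axis), divided into those at least 2-fold lower in SHs, those at least 2-fold higher and those that were neither, with 1 library per condition. The stellate cell genes had 11 of 12 lower, the collagens 6 of 23, and the only higher call was Ddr1 among the collagen receptors. Of all genes with at least 10 reads, 4.44% were lower and 1.82% higher.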

How the data were processed

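The authors deposited raw read counts per gene symbol for 1 library of MHs and 1 of SHs, without normalization. Per the methods, reads were trimmed and aligned in CLC Genomics Workbench to mm10 with reads of several hits kept up to a limit, and RPKM were reported. The program, annotation and strand setting behind the counts are not given in the sources used here, so counts of near-identical or overlapping genes are uncertain. From the counts, RPM, log2 ratios and Clopper-Pearson intervals were computed in Python 3.11.15 with scipy 1.17.1. Exon lengths and coordinates came from GENCODE M21 for mm10, which held all 60 members and 39469 of 43280 symbols, and RPKM used the union of exons. No test between conditions was possible. The members, gene lists and classes were chosen with earlier results of these data known. All members with at least 10 reads were named, as were others with at least 4 in a library, and in each pathway list the 3 genes with the most reads and up to 3 called in each direction. A gene that this rule selects is not reported here. Prelp, Nid2, Lhx2, Hand2, Gfap, Stab2, Lox, Loxl1, Loxl3, Loxl4, C430014B12Rik, Pcsk7 and the genes whose upstream sequences are shown were chosen after their values were seen. Alternatives were scaling by edgeR's TMM (4.0.16), by DESeq2's size factors (1.42.0) and without the 10 genes with the most reads, other read minimums, thresholds and added reads, and shorter lists. The calculation was tested on simulated counts.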

Additional observations from a re-analysis of the deposited data

How the results depend on the processing

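No paired analysis was possible because MHs and SHs had a single library each. The scalings shifted all log2 ratios alike, by between 0.0091 and 0.0315. Under each of the 3 scalings, 17 members were at least 2-fold lower and 0 were higher. When library totals excluded the 10 highest genes, the summed collagen ratio was 0.20, beyond its counting interval, and Col4a2 was the only member of 35 whose interval changed its relation to 0. With read minimums of 30 and 100, the number of members lower was 8 and 4, since fewer genes were tested, and with a minimum of 1 it was 20. With thresholds of 1.5-fold and 4-fold it was 17 and 14, and without Vim, Sparc, Col4a1 and Col4a2 it was 15. Without Col18a1, the summed collagen ratio was -0.15 and reversed its sign. Without Reln, the summed stellate ratio was -3.80, and over the wider list of 22 markers it was -2.61. Without Col14a1, the summed FACIT ratio was -0.64 in place of -1.73. The last 2 alternatives were chosen after seeing the data. Over the settings tried, the collagen median lay between -0.19 and -0.10 and the stellate median between -3.87 and -2.72. Depth limits the 25 members with under 10 reads, and the cause of other differences was not tested.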
